A study of Mus musculus with 6 samples.

Results

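The 10 genes described here form the core of the circadian clock: Arntl, Clock, Npas2, Per1, Per2, Per3, Cry1, Cry2, Nr1d1 and Dbp. They were chosen by name, and all 10 were found among the 24062 genes of the deposited count tables. RNA was sequenced from mouse optic nerves in 6 libraries, 3 of them from mutants and 3 from controls. The mutants had the genotype PlpCreERT2;Nf1flox/flox, in which a Cre recombinase that needs tamoxifen is driven by a promoter active in myelinating glia, and both alleles of Nf1, which encodes the Ras inhibitor neurofibromin, carry loxP sites. Among the controls, library 1 was Nf1flox/flox while libraries 2 and 3 were Nf1flox/+, so that every control carried at least 1 floxed allele and none carried the Cre. All animals, mutants and controls alike, were treated with tamoxifen at an age of more than 2 months, 1 month before the nerves were collected. The strain, the number of animals per library and the hour at which nerves were taken are not given in the sources used here. Levels of clock genes depend on that hour, and its part in the values was not tested.

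The clock is a feedback loop of transcription that runs in most cells of the body, glia included. ARNTL (also called BMAL1) pairs with CLOCK or its relative NPAS2 and switches on the Per and Cry genes, Nr1d1 and Dbp through a DNA element named the E-box, and PER and CRY proteins then block that pair. NR1D1 (REV-ERB alpha) represses Arntl and Npas2 through an element named RORE, and DBP acts through the D-box, so Arntl and Npas2 peak at about the opposite time of day from Nr1d1, Dbp and the Per genes. The optic nerve itself carries the light signal that sets the master clock in the suprachiasmatic nucleus, which lies above the optic chiasm.

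Library totals ranged from 13555756 to 19012262 counts in mutants and from 21307855 to 23662698 in controls. Levels are given as CPM, which are counts scaled to 1 common library size with TMM factors. Nf1 itself had 304, 226 and 433 CPM in mutant libraries 1, 2 and 3, against 394, 400 and 337 CPM in control libraries 1, 2 and 3, so the groups overlapped, and a count summed over all exons does not show the floxed part alone. The myelin gene Mbp, which marks the tissue, had 2719, 17890 and 1939 CPM in the mutant libraries and 13014 to 14348 CPM in the controls, so mutant library 2 stood apart from the other mutants. The counts of Xist, the RNA that coats the inactive X, were 38466, 30602 and 51760 in the mutants, against 58, 72727 and 34 in control libraries 1, 2 and 3. Control library 2 was thus the control that shared the sex-linked pattern of all 3 mutant libraries. Clock gene and marker counts that move without mutant library 2 are given both ways.

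Npas2 was the clock gene that changed. Its counts were 1045, 343 and 638 in mutant libraries 1, 2 and 3, against 160, 154 and 179 in control libraries 1, 2 and 3. Scaled to CPM, that was 56.4, 25.9 and 44.5 in the mutants, against 7.92, 6.39 and 7.43 in the controls. Each mutant library was above every control, and mutant library 2 was the lowest of the mutants. Npas2 (chromosome 1, 39194272 to 39363240, plus strand, mm10) encodes the partner of ARNTL that stands in for CLOCK and is best known from the forebrain. It averaged 42.3 ± 15.4 CPM in mutants and 7.25 ± 0.785 CPM in controls (SD, n = 3 each). That is a log2 fold change of 2.54, mutant over control, with an SE of 0.33, and edgeR's quasi-likelihood test gave an adjusted p of 0.00613 over 16315 genes. Of the 10 clock genes 1 rose and 0 fell, beside 3.29% of all genes tested that changed, 2.95% upward and 0.337% downward. At an unadjusted p under 0.05 the edgeR test had 2 clock genes, Npas2 and Arntl, beside 19.2% of all genes tested. DESeq2 and limma-voom each called the same single gene, with adjusted p of 1.67e-10 and 0.00958. At an unadjusted p under 0.05, 0 clock genes were lower by edgeR with TMM or by limma-voom, and 1 was by DESeq2 and by edgeR with upper quartile or total count scaling.

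The size of the Npas2 difference stayed close to the same when libraries were left out, but the call did not always hold. Without control library 1 the log2 fold change was 2.62 (edgeR adjusted p 0.0604), and without control library 2 it was 2.47 (edgeR adjusted p 0.0550). Without mutant library 2 it was 2.81 (edgeR adjusted p 4.09e-05). With the level of Xist (log2 CPM) as a covariate the value was 2.72 (edgeR adjusted p 0.229), in a fit that called 0 genes of all tested and gave 1299 an unadjusted p under 0.05. Against control library 2 alone, mutant libraries 1, 2 and 3 stood 3.14, 2.02 and 2.80 log2 units higher, a comparison with 1 library and no test. The part of sex in the difference was not tested apart from these values.

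**Figure D1:**
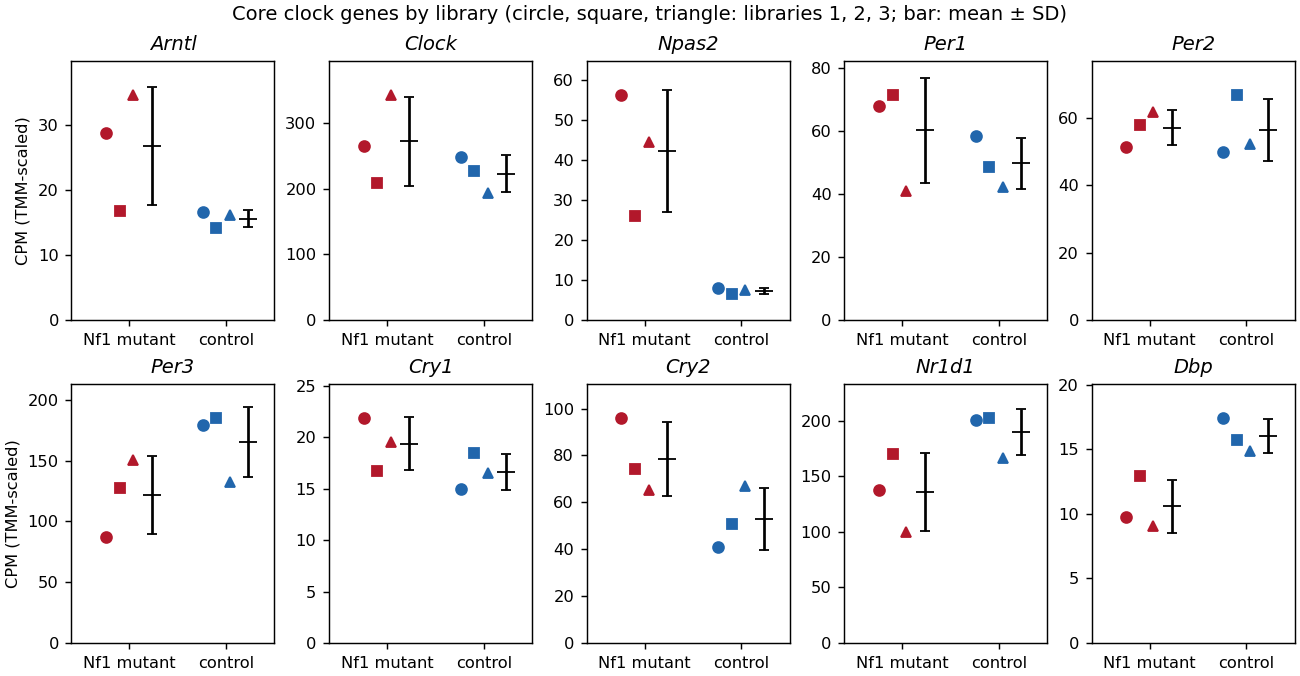
CPM (vertical axes, starting at 0) of the 10 core clock genes in the 3 Nf1 mutant libraries (red, left) and the 3 control libraries (blue, right), with bars for mean ± SD. Npas2 shows a wide gap between groups, from 25.9 CPM in the lowest mutant to 7.92 CPM in the highest control. Most other panels show overlapping groups.

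Most markers of forebrain neurons were higher in the same libraries as Npas2. All 10 striatal projection neuron markers rose, with a summed level of 1390 to 2237 CPM in mutants and 112 to 168 CPM in controls. Among them the dopamine receptor gene Drd2 had 55.6, 37.3 and 32.5 CPM in mutant libraries 1, 2 and 3, against 1.19, 1.58 and 1.20 CPM in control libraries 1, 2 and 3, and Drd1a rose as well. With each library left out in turn, 8 to 10 of the list passed, and with the Xist covariate 0 passed by edgeR, with 10 at an unadjusted p under 0.05. Of 10 general neuron markers 6 rose, Rbfox3 and Camk2a among them, with a summed level of 2179 to 7292 CPM in mutants and 699.5 to 1320 CPM in controls. That count was 9 without mutant library 2, beside 13.2% of all genes tested that passed upward in that fit. It was 2 without mutant library 1 or 3 or control library 2 or 3. It was 0 without control library 1 and 0 with the Xist covariate, with 9 genes at an unadjusted p under 0.05 in both fits with 0. Slc17a7, the vesicular glutamate transporter of cortical neurons, had 2588, 1 and 309 counts in mutant libraries 1, 2 and 3, against 13, 7 and 6 counts in control libraries 1, 2 and 3, so this marker was near 0 in mutant library 2 while the striatal markers were not. Stmn2, a general neuron marker named after its values were seen, had 203, 38.4 and 76.1 CPM in the mutants, against 44.0, 53.4 and 96.5 CPM in the controls. It was thus below every control in mutant library 2. No gene of these lists was at 0 in all libraries. The part of neuronal RNA in the value of Npas2 was not tested, and in bulk tissue more cells of a type and more RNA per cell cannot be told apart.

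On the log2(CPM + 0.5) scale, the mean of the striatal list exceeded that of the controls by 4.23, 3.63 and 3.48 in mutant libraries 1, 2 and 3, and that of the neuron list by 3.34, 0.97 and 2.61. Among the mutants, Npas2 and the neuron list were lowest in mutant library 2, while the striatal list was lowest in mutant library 3 by this mean and in mutant library 2 by summed CPM. The 3 genes outside the clock whose profile over the 6 libraries was closest to that of Npas2 were Gucy1a3, Tiam1 and Cacna2d3. Their centred log2 CPM differed from that of Npas2 by a mean of 0.042, 0.076 and 0.098 per library. Gucy1a3, a subunit of the nitric oxide receptor guanylate cyclase, had 301, 149 and 230 CPM in the mutants, against 42.1, 35.7 and 39.7 CPM in the controls. Tiam1 encodes an exchange factor for Rac, and Cacna2d3 an auxiliary subunit of calcium channels.

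**Figure D2:**
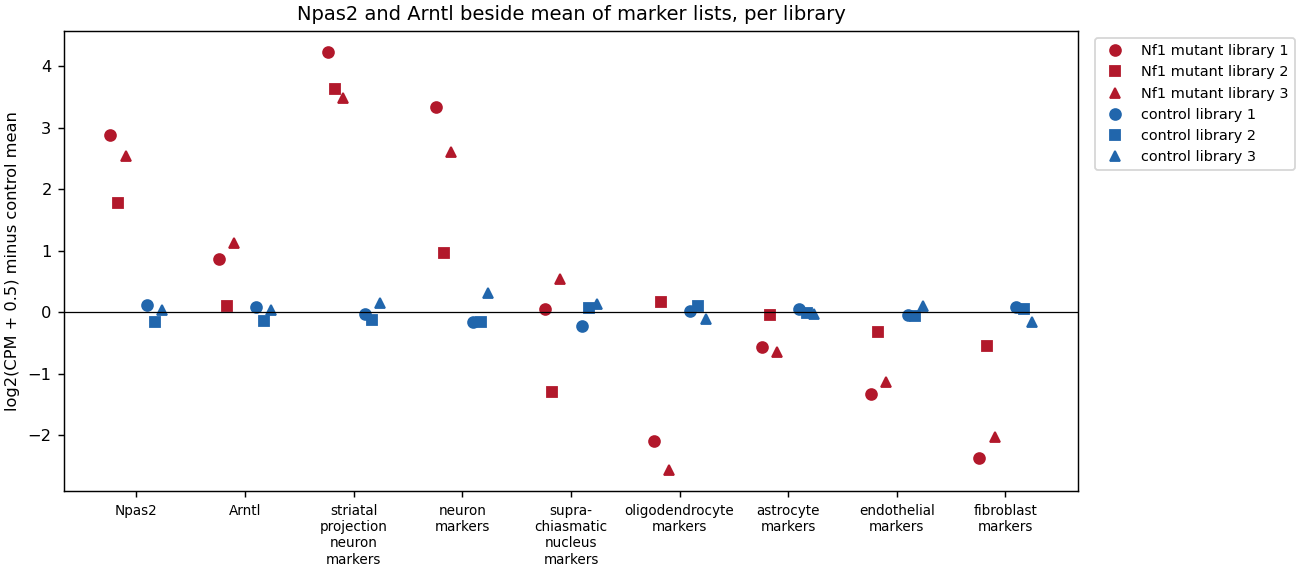
Difference in log2(CPM + 0.5) from the control mean (vertical axis) for Npas2, Arntl and the means of 7 marker lists in each Nf1 mutant library (red) and control library (blue). Npas2 lies between the striatal list and Arntl in each mutant library. The oligodendrocyte list is near 0 in mutant library 2 (0.18) and low in mutant libraries 1 and 3 (-2.10 and -2.57).

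Arntl and Clock, the other activators, did not pass the test. Arntl (chromosome 7, 113207465 to 113314126, plus strand) had 28.8, 16.8 and 34.6 CPM in mutant libraries 1, 2 and 3, against 16.6, 14.1 and 16.1 CPM in control libraries 1, 2 and 3. The groups did not overlap, yet mutant library 2 lay just above the highest control. The log2 fold change came to 0.78 with an SE of 0.30 (adjusted p 0.209 by edgeR), and it was 1.03 (adjusted p 0.00883) without mutant library 2. That fit called 27.0% of all genes tested, 13.2% upward and 13.8% downward, and 3 of the 10 clock genes passed in it, Npas2 and Arntl upward and Nr1d1 downward, a share near that background. Against control library 2 alone, Arntl in mutant libraries 1, 2 and 3 stood 1.03, 0.26 and 1.30 log2 units higher. Clock (chromosome 5, 76209868 to 76304792, minus strand) had 266, 209 and 343 CPM in the mutants, against 249, 228 and 193 CPM in the controls. Its groups overlapped, with a log2 fold change of 0.29 with an SE of 0.26 (adjusted p 0.585 by edgeR). Per length, Clock was the highest of the 3 activators in both groups. In RPKM, which is CPM per kilobase of exon, Clock had 27.5 ± 6.82 in mutants and 22.5 ± 2.83 in controls, Arntl 9.19 ± 3.13 and 5.35 ± 0.459, and Npas2 10.1 ± 3.67 and 1.73 ± 0.188 (SD, n = 3 each).

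The start regions of Npas2 and Arntl are shown because these were the clock genes whose mutant libraries all stood above the controls. Each window runs from 250 bases before a RefSeq transcript start to 50 bases from it on (GRCm38.p6), and was searched on both strands for the E-box CACGTG, the RORE core TAGGTCA, the D-box TTANGTAA and the cyclic AMP response element TGACGTCA. Capitals mark a match. Of all 32817 windows in the table, 7.15% held the E-box, 2.61% the RORE core, 2.32% the D-box and 1.79% the cyclic AMP response element.
Npas2, chr1:39194022-39194321, plus strand: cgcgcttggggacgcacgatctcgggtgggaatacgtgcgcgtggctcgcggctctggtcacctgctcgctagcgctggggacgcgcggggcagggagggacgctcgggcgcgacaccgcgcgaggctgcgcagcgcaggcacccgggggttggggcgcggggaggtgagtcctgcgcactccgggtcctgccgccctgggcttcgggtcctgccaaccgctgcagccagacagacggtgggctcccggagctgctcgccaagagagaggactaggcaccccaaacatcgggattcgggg
Arntl, chr7:113207261-113207560, plus strand: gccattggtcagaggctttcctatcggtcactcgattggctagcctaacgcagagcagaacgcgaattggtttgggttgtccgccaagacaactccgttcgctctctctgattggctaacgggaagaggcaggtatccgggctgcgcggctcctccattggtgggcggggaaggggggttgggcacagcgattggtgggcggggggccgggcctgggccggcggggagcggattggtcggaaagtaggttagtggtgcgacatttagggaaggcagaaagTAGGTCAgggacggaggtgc
The window of Npas2 held none of the 4 motifs, which says only that these letters are not in it. The window of the Arntl start shown held 1 RORE core, 30 bases after the start base. A second RefSeq start of Arntl lies 46 bases upstream, and its window held no match.

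The Period genes, whose proteins are repressors of the loop, showed 3 different patterns and 0 calls. Per1 (chromosome 11, 69098956 to 69109957, plus strand), the member that responds fastest to stimulation, had 67.9, 71.5 and 41.1 CPM in mutant libraries 1, 2 and 3, against 58.3, 48.5 and 42.3 CPM in control libraries 1, 2 and 3. Mutant library 3 was below all controls and the other mutants were above them, so no direction held in every library. Per2 (chromosome 1, 91415982 to 91459328, minus strand), the Period gene that the central clock most depends on, had 51.4, 57.9 and 61.7 CPM in the mutants, against 49.8, 66.8 and 52.3 CPM in the controls. Its log2 fold change came to 0.02 with an SE of 0.22 (adjusted p 0.978 by edgeR), the smallest of the 10 in size, and its sign turned with the scaling. Per3 (chromosome 4, 151003655 to 151044665, minus strand), which is the least needed for the rhythm in mice, had 87.0, 128 and 151 CPM in the mutants, against 179, 185 and 132 CPM in the controls. Mutant library 3 lay above the lowest control, and the log2 fold change came to -0.44 with an SE of 0.27 (adjusted p 0.408 by edgeR), beside 0.28 (SE 0.27, edgeR adjusted p 0.625) for Per1.

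The Cryptochrome genes, the partners of PER proteins and the stronger repressors, also overlapped between groups. Cry1 (chromosome 10, 85131700 to 85185054, minus strand) had 21.9, 16.8 and 19.5 CPM in mutant libraries 1, 2 and 3, against 15.0, 18.5 and 16.5 CPM in control libraries 1, 2 and 3. Its log2 fold change came to 0.22 with an SE of 0.25 (adjusted p 0.675 by edgeR). Cry2 (chromosome 2, 92403647 to 92434069, minus strand) had 96.0, 74.2 and 65.4 CPM in the mutants, against 40.8, 50.9 and 66.9 CPM in the controls. Mutant library 3 and control library 3 had almost the same level, and the log2 fold change came to 0.57 with an SE of 0.26 (adjusted p 0.277 by edgeR). Of the exon bases of Cry2, 149 are shared with D930015M05Rik on the other strand, and the counts were made without strand.

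The windows of Per1, Cry1 and Per3 are shown because they held the E-box and D-box letters through which the loop acts on its repressors, marked in capitals as above.
Per1, chr11:69098699-69098998, plus strand: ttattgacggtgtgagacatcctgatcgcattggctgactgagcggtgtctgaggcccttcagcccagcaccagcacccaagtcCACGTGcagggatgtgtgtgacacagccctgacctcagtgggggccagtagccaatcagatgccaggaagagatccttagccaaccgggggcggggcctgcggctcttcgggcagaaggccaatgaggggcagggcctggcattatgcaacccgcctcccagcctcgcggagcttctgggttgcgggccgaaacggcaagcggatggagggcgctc
Cry1, chr10:85185005-85185304, minus strand: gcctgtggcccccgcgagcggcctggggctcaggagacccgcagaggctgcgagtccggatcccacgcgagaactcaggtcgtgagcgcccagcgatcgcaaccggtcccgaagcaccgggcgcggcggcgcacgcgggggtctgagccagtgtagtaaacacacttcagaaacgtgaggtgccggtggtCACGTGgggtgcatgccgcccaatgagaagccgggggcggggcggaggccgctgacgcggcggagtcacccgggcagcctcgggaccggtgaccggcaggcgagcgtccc
Per3, chr4:151044616-151044915, minus strand: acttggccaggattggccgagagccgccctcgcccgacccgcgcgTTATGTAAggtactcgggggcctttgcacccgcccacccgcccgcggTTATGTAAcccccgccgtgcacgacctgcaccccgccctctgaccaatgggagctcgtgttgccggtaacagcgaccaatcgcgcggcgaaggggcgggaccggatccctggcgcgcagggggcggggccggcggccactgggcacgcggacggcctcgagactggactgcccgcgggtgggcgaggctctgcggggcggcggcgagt
Per1 held 1 E-box that begins 166 bases before the start, and Cry1 held 1 that begins 60 bases before it. The window of a second RefSeq start of Per1 held no match. Per3 held 2 D-boxes, beginning 205 and 158 bases before the start. In all, 9 of the 10 clock genes had at least 1 window in the table, 13 windows together. Of these genes, 2 held an E-box, 1 a D-box, 1 a RORE core and 0 a cyclic AMP response element in any window. These are counts of genes, while the shares given above are of windows, so they are not directly comparable. Per2 was not matched. The genes with an E-box here, Per1 and Cry1, had log2 fold changes of 0.28 and 0.22, and neither passed the test.

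Nr1d1 and Dbp, the nuclear receptor and the output factor that the ARNTL pair drives most directly, had negative fold changes that did not pass. Nr1d1 (chromosome 11, 98767932 to 98775377, minus strand) had 138, 169.7 and 100.2 CPM in mutant libraries 1, 2 and 3, against 201, 203 and 166 CPM in control libraries 1, 2 and 3. Mutant library 2 lay above the lowest control, so the groups overlapped. The log2 fold change came to -0.48 with an SE of 0.25 (adjusted p 0.339 by edgeR), and -0.67 (adjusted p 0.0426) without mutant library 2. Dbp (chromosome 7, 45705247 to 45710203, plus strand) had 9.77, 12.9 and 9.07 CPM in the mutants, against 17.4, 15.8 and 14.9 CPM in the controls. Every mutant library was below every control, with a log2 fold change of -0.60 with an SE of 0.27 (adjusted p 0.270 by edgeR), and -0.76 (adjusted p 0.0608) without mutant library 2. Altogether the groups did not overlap in 3 of the 10 clock genes, Npas2 and Arntl upward and Dbp downward, where 24.0% of all genes tested did not overlap, 12.5% upward and 11.5% downward.

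Both of these genes share exon sequence with a neighbour on the other strand, and counting without strand makes their values uncertain to that extent. Of the 1678 exon bases of Dbp, 539 are shared with Sphk2, a sphingosine kinase gene, which had 18.7, 33.6 and 21.2 CPM in the mutants, against 28.1, 27.3 and 24.4 CPM in the controls. Of the 2765 exon bases of Nr1d1, 263 are shared with the thyroid hormone receptor gene Thra in GENCODE M21, on the same genome build, although the annotation used for the counts shows no such overlap. Thra had 131, 103 and 83.2 CPM in the mutants, against 64.5, 69.7 and 70.2 CPM in the controls, and its fold change had the opposite sign to that of Nr1d1.

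**Figure D3:**
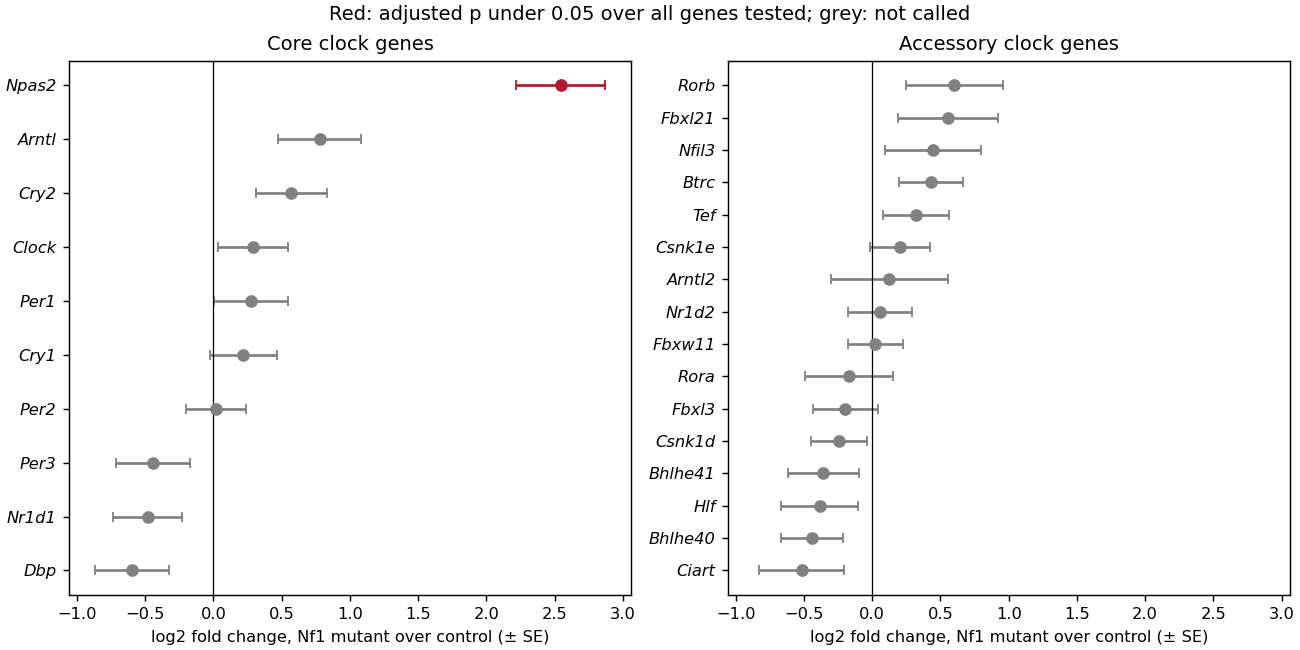
Log2 fold change, Nf1 mutant over control, with SE bars (horizontal axes), for the 10 core clock genes (left) and all but 1 of the 17 accessory clock genes (right), ordered by value. Npas2 at 2.54 is the one gene in red, which marks an adjusted p under 0.05. The other values shown lie between -0.60 and 0.78.

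Ratios of 2 genes within a library do not depend on how libraries are scaled, and they were set out for the genes of opposite phase. They are a description with no test. The log2 ratio of Dbp over Arntl counts was -1.56, -0.38 and -1.93 in mutant libraries 1, 2 and 3, against 0.07, 0.16 and -0.11 in control libraries 1, 2 and 3. All mutants were below all controls, mutant library 2 by the least. For this ratio the gap had to appear, because Dbp was lower and Arntl higher in every mutant library than in every control. It adds nothing to those 2 values, and the share of other gene pairs that separate was not computed. The ratio of Nr1d1 over Arntl was 2.26, 3.34 and 1.53 in the mutants, against 3.60, 3.85 and 3.37 in the controls. Here the highest mutant and the lowest control were almost level. Per3 over Arntl had 1.598, 2.93 and 2.12 in the mutants, against 3.43, 3.72 and 3.04 in the controls. Per1 and Per2 over Arntl overlapped between groups, with means of 1.19 ± 0.923 and 1.153 ± 0.549 in mutants, and 1.67 ± 0.234 and 1.85 ± 0.353 in controls (SD, n = 3 each). The spread of these ratios was larger in the mutants for all 5 genes, and the ratios share the Arntl counts, so they are not separate measurements.

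**Figure D4:**
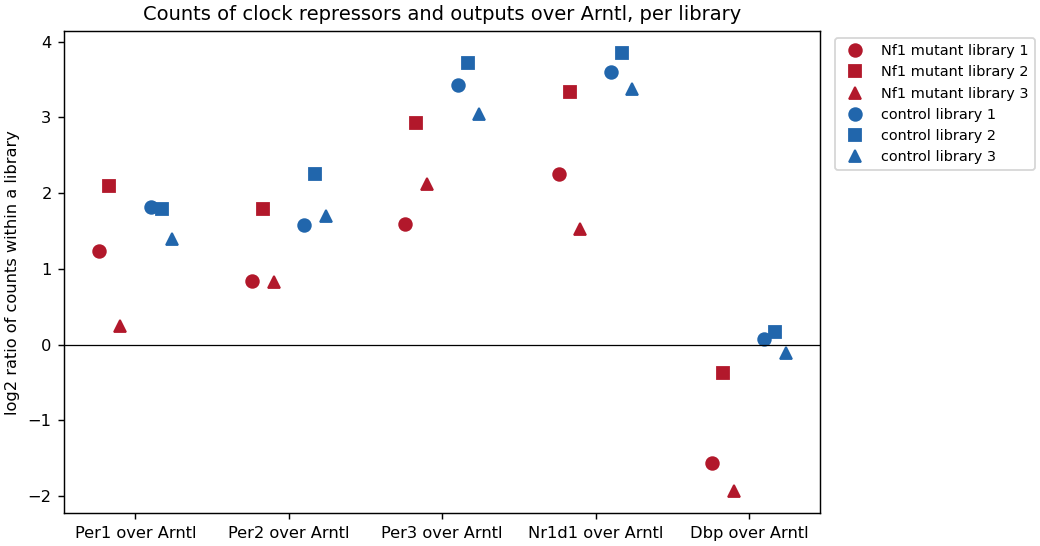
Log2 ratio of counts over Arntl counts within each library (vertical axis) for Per1, Per2, Per3, Nr1d1 and Dbp, with Nf1 mutant libraries in red and control libraries in blue. Dbp, Nr1d1 and Per3 show mutants below all controls. Mutant library 2 (red square) is the mutant closest to the control mean for Per2, Per3, Nr1d1 and Dbp.

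Set side by side per length, Nr1d1 was the most abundant clock transcript in both groups. It had 49.1 ± 12.6 RPKM in mutants and 68.6 ± 7.41 RPKM in controls (SD, n = 3 each), above every other clock gene in every library of its group. In mutants the order of mean RPKM went on with Clock, Per3, Cry2, Per1, Npas2, Per2, Arntl, Cry1 and Dbp. In controls it went on with Per3, Clock, Cry2, Per1, Per2, Dbp, Cry1, Arntl and Npas2. Npas2 was thus last in controls, below every other clock gene in every control library, and stood at the sixth place in mutants. Neighbours in the order overlapped except between Nr1d1 and Clock and between Cry2 and Per1 in mutants, and except between Nr1d1 and Per3, Clock and Cry2, Dbp and Cry1, and Arntl and Npas2 in controls. Dbp had 6.31 ± 1.22 RPKM in mutants and 9.54 ± 0.780 RPKM in controls, a level that the bases shared with Sphk2 can affect.

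**Figure D5:**
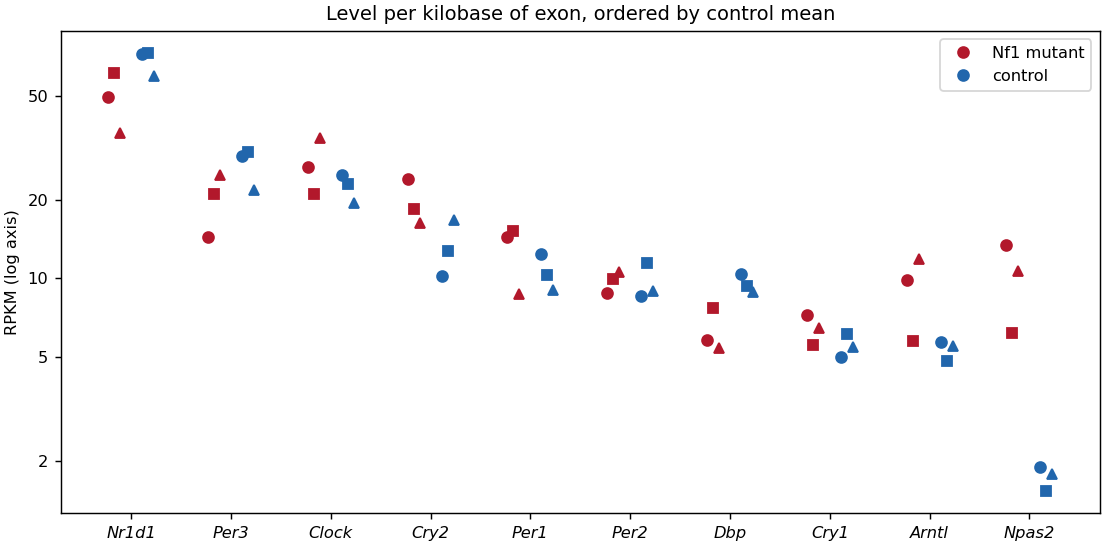
RPKM on a log axis (vertical) of the 10 clock genes, ordered by control mean, in the Nf1 mutant libraries (red) and control libraries (blue), with a circle, square and triangle for libraries 1, 2 and 3. Nr1d1 is at the top in both groups, and Npas2 is at the bottom in controls, with 1.53 to 1.90 RPKM against 6.20 to 13.5 RPKM in mutants.

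The rest of the clock pathway had 0 of 17 accessory genes passing in either direction by edgeR, DESeq2 or limma-voom. At an unadjusted p under 0.05 there were 0 by edgeR, 0 by DESeq2 and 1 by limma-voom. Their median log2 fold change was 0.02, beside a median of -0.0017 over all genes tested and 0.25 over the 10 core genes. Bhlhe40, Btrc and Rorb were among the 4 with the smallest p. Bhlhe40, a repressor that competes for E-boxes, had 81.4, 62.7 and 69.1 CPM in mutant libraries 1, 2 and 3, against 95.8, 113 and 80.2 CPM in control libraries 1, 2 and 3. Rorb, an activator at RORE sites, had 129, 73.0 and 198 CPM in the mutants, against 72.9, 80.1 and 111 CPM in the controls. Mutant library 2 sat with the controls in Rorb, and the other mutants were above all of them. Btrc, part of the ligase that marks PER proteins for breakdown, had a log2 fold change of 0.43 with an SE of 0.23 (adjusted p 0.356 by edgeR). Without mutant library 2, 3 accessory genes passed upward, Rorb at 0.90, Fbxl21 at 0.87 and Btrc at 0.60, and 2 passed downward, Bhlhe41 at -0.63 among them, beside the 13.2% upward and 13.8% downward of all genes given above. Fbxl21 and Bhlhe41 were named after their values were seen.

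Ciart, a repressor that follows Nr1d1 and Dbp in phase, was the single gene of the 17 accessory genes whose groups did not overlap. Of all genes tested, 24.0% did not overlap, 12.5% upward and 11.5% downward. It had 10.7, 13.98 and 7.05 CPM in mutant libraries 1, 2 and 3, against 15.8, 15.0 and 14.6 CPM in control libraries 1, 2 and 3, with a log2 fold change of -0.52 with an SE of 0.31 (adjusted p 0.404 by edgeR). It too was named after its values were seen. Nr1d2, the close relative of Nr1d1, had 181, 191 and 254 CPM in the mutants, against 223, 187 and 191 CPM in the controls, and its log2 fold change came to 0.06 with an SE of 0.23 (adjusted p 0.921 by edgeR). Of 9 genes that the clock drives in many tissues 0 passed by edgeR, DESeq2 or limma-voom, and 0 had an unadjusted p under 0.05 by any of them. Usp2, a ubiquitin protease gene, had 61.2, 57.1 and 47.4 CPM in the mutants, against 47.2, 39.3 and 35.2 CPM in the controls.

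Per1 and Per2 are also induced by glucocorticoids and by the cyclic AMP signal of stimulated cells, so genes of those responses were set beside them. Of 9 glucocorticoid-responsive genes 0 passed by edgeR, DESeq2 or limma-voom, with 0, 0 and 1 at an unadjusted p under 0.05, and the median log2 fold change was 0.15. Errfi1, a feedback inhibitor of EGF receptor signalling, was at -0.70 (SE 0.35, edgeR adjusted p 0.311), and at -1.18 (adjusted p 0.00307) without mutant library 2, and Klf9, a zinc finger factor gene, was at 0.43 (SE 0.27, edgeR adjusted p 0.432). Of 10 immediate early genes 4 rose, Egr3, Fosb, Npas4 and Arc, with a median log2 fold change of 1.95 over the list, and 0 passed with the Xist covariate by edgeR, where 6 had an unadjusted p under 0.05. The count was 7 without mutant library 2, beside 13.2% of all genes tested that passed upward in that fit. It was 2 without control library 1, and 1 without control library 2 or control library 3. Npas4, a factor found mainly in active neurons, had 32.9, 7.94 and 11.9 CPM in mutant libraries 1, 2 and 3, against 1.58, 1.53 and 1.37 CPM in control libraries 1, 2 and 3. Per1 was highest in mutant library 2, at 71.5 CPM, close to the 67.9 CPM of mutant library 1, whereas Per2 was highest of the mutants in mutant library 3. In mutant library 2, Npas4 was the lowest of the mutants. Dusp1, of the same list and named after its values were seen, was the highest there, with 40.1, 49.8 and 16.3 CPM in mutant libraries 1, 2 and 3. Every gene of the glucocorticoid list had its highest mutant level in mutant library 2, the library that also stood apart from the other mutants in Mbp. Errfi1 had 91.6, 189 and 80.4 CPM in mutant libraries 1, 2 and 3, against 239, 181 and 166 CPM in the controls. Klf9 had 107, 153 and 142 CPM in the mutants, against 132, 74.4 and 92.8 CPM in the controls. The part of either response in the values of Per1 and Per2 was not tested.

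Markers of the suprachiasmatic nucleus were detected in both groups. Of 10 such genes 1 rose, Prok2, a signalling peptide gene of that nucleus and of other brain regions, named after its values were seen. The call was lost by limma-voom, with the Xist covariate, and without mutant library 1, mutant library 3 or any control. Without mutant library 2, 2 genes passed upward and 1 downward, beside 13.2% upward and 13.8% downward of all genes tested. The summed level was 211 to 661 CPM in mutants and 414 to 794 CPM in controls, and no gene was at 0 in all libraries. Avp, the vasopressin gene, which other hypothalamic nuclei also express, had 92.8, 624 and 30.2 CPM in mutant libraries 1, 2 and 3, against 309, 676 and 395 CPM in control libraries 1, 2 and 3. It thus made up most of the summed level of 661 CPM in mutant library 2. On the log2(CPM + 0.5) scale, the mean of the list differed from that of the controls by 0.05, -1.29 and 0.55 in mutant libraries 1, 2 and 3. By that mean, mutant library 2 was the lowest of all libraries. Vip, a peptide gene of the light-receiving part of the nucleus, had 33.99, 4.91 and 120 CPM in the mutants, against 46.7, 55.4 and 56.1 CPM in the controls. The mutants spread far more than the controls in both genes, and mutant libraries 2 and 3 lay at opposite ends. The part of tissue next to the nerve in the clock values was not tested.

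Other marker lists of 10 genes each were read for the same reason, and their counts moved most with mutant library 2. The edgeR fit without that library called 13.2% of all genes tested upward and 13.8% downward. Each count from that fit, here and below, stands beside those shares. Oligodendrocyte markers, Mbp among them, summed to 4662 to 33820 CPM in mutants and 25880 to 26700 CPM in controls. With all libraries 0 passed by edgeR, with 1 at an unadjusted p under 0.05, and 1 fell by DESeq2. Without mutant library 2 all 10 fell by edgeR, with a median log2 fold change of -2.31. Microglia markers such as Csf1r and Cx3cr1 summed to 349 to 885 CPM in mutants and 671 to 881 CPM in controls. With all libraries 0 passed by edgeR, with 1 at an unadjusted p under 0.05, and 0 passed by DESeq2, whereas 6 fell by edgeR without mutant library 2.

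Astrocyte markers summed to 5811 to 6934 CPM in mutants and 5632 to 5775 CPM in controls. The largest part of this sum in every library came from the glutamate transporter gene Slc1a2. It had 4772, 3214 and 3983 CPM in mutant libraries 1, 2 and 3, against 2005, 1948 and 1813 CPM in control libraries 1, 2 and 3. The median log2 fold change of the list was -0.46, and 6 of 10 values were negative, Aqp4 at -0.55 and Gfap at -1.18 among them. By edgeR 0 passed with all libraries, with 3 at an unadjusted p under 0.05. DESeq2 called 1 upward and 1 downward, and edgeR without mutant library 2 called 1 upward and 4 downward.

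The summed levels of endothelial and fibroblast markers were lower in every mutant library than in every control. The endothelial list, with Pecam1 and Cldn5, summed to 173 to 346 CPM in mutants and 421 to 451 CPM in controls. Of its genes 1 fell by edgeR, Kdr, and the count was 8 without mutant library 2, 5 by DESeq2, 0 without any other single library and 0 with the Xist covariate, where 4 had an unadjusted p under 0.05. Fibroblast markers such as Col1a1 and Col1a2 summed to 386 to 1732 CPM in mutants and 2209 to 2990 CPM in controls. By edgeR 0 passed, with 8 at an unadjusted p under 0.05, while 8 fell by DESeq2, 2 by limma-voom and 9 by edgeR without mutant library 2. Retina markers such as Pde6b, 6 of them tested, summed to 4.69 to 12.1 CPM in mutants and 4.98 to 6.22 CPM in controls. Rcvrn rose, on 21, 24 and 21 counts in mutant libraries 1, 2 and 3, against 2, 2 and 1 in control libraries 1, 2 and 3. At a minimum count of 30 only 1 retina marker was tested, which was not Rcvrn, and it did not pass. With the Xist covariate, or when a library other than mutant library 2 was left out, 0 passed, while 2 passed without mutant library 2. Kdr, Rcvrn and Slc1a2 were named after their values were seen.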

How the data were processed

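NuGEN Ovation amplified the optic nerve RNA, and Nextera XT was used for the libraries, as the labels' protocols state. The deposited values are raw counts per gene, which the authors made with featureCounts 1.4.6-p4 for read pairs, over exons and ignoring strand, per the file headers. The headers also give the UCSC mm10 gene annotation, and the submitters' processing notes list TopHat and mm10. Groups come from the titles, and replicate numbers only name libraries. No label gives each library its own animal: p-values reflect only how far these libraries spread, which may be technical.

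Genes were tested with edgeR 4.0.16 under R 4.3.3, using TMM scaling, filterByExpr at a minimum count of 10, quasi-likelihood F tests and Benjamini-Hochberg adjusted p under 0.05 over 16315 genes. The SE is the absolute log2 fold change over the square root of F. Every pair of libraries differed beyond sampling noise (chi-square at least 45.6 per degree of freedom). The clock genes had 130 to 5494 counts per library. Alternatives were DESeq2 1.42.0, limma-voom (limma 3.58.1), other scalings, filters, thresholds and dispersions, Xist as a covariate, and each library left out. Promoter windows are from RefSeq (GRCm38.p6).

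The clock genes and all lists were chosen with earlier results of these data known. Named are all 10 clock genes, genes that passed, those of smallest p up to 4 accessory genes and 2 of each of the output, glucocorticoid and immediate early lists, the first 2 of each marker list, and the 3 genes closest in profile to the clock gene of smallest p. Nr1d2, Slc17a7 and overlapping genes were added after their values were seen. A few genes that the rule names are not reported here.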

Additional observations from a re-analysis of the deposited data

How the results depend on the processing

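The count of clock genes that rose, 1, was 0 with the Xist covariate (edgeR, with 1 gene at an unadjusted p under 0.05), and ranged from 0 to 2 when each library was left out in turn. The count that fell, 0, ranged from 0 to 1, that of accessory genes that rose from 0 to 3, and that of accessory genes that fell from 0 to 2. The higher ends of these ranges all came without mutant library 2. Over all genes the count of 537 was 1645 by DESeq2, 870 without a filter on low counts, 1073 at an adjusted p under 0.1 and 0 with the Xist covariate, and it ranged from 51 without control library 1 to 4551 without mutant library 2. The cause was not tested.

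The log2 fold change of Npas2 ranged from 2.28 to 2.81 over 15 alternatives, of which 12 called it. Of the other clock genes, Per2 changed sign: it was -0.049 with upper quartile scaling, -0.0017 with total counts and -0.23 with the Xist covariate, and ranged from -0.055 to 0.17 when each library was left out. The remaining 9 kept their sign in all 15. The 120 RPKM levels and the 35 log2 ratios computed under alternatives moved by less than 1 SD between replicates. Leaving out 1 library of a group cannot move its mean by that much. The alternatives with a library left out could thus not have shown otherwise. No paired analysis was possible because the labels name libraries by letter codes and share no replicate numbers. The lowest count of a clock gene in any library was 130.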

Other observations

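The spread between libraries was smaller in controls than in mutants for most clock genes. In controls, 8 of the 10 had a smaller SD of log2 CPM than the median gene tested. Genes of like level were not compared apart, so the part of expression level in this was not tested. The share of all genes tested with a smaller control SD was lowest for Dbp (15.8%) and Arntl (17.9%). It was highest for Per3 (54.4%) and Cry2 (70.6%). The coefficient of variation of Arntl was 34.02% in mutants and 8.57% in controls, and that of Nr1d1 was 25.6% in mutants and 10.8% in controls. It was larger in mutants for 8 of the 10 clock genes, beside 74.8% of all genes tested, so the clock genes were close to the background in this respect. Per2 and Cry2 were the exceptions, with 9.10% and 20.02% in mutants, and 16.3% and 24.9% in controls.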
